A study of Mus musculus with 6 samples.

Results

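The endothelin system of the mouse retina was described through 7 genes, matched by exact symbol in the FPKM table of each of 6 libraries: the ligands Edn1, Edn2 and Edn3, the receptors Ednra and Ednrb, and the converting enzymes Ece1 and Ece2. All 7 were found among the 24346 genes listed. Of the libraries, 3 were from the retina of Unc119-/- mice (KO) and 3 from the retina of Unc119+/+ mice (WT). UNC119 is a chaperone that binds lipid-modified proteins such as rod transducin and helps move them within photoreceptors. The study's title places its loss in a cone-rod dystrophy. The sources used here do not give strain, age, or whether each library came from 1 animal or from pooled animals, so p-values measure the spread between libraries, part of which may be technical.

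Endothelins are short peptides best known as constrictors of blood vessels. Each is made as a long precursor that furin-type proteases trim to an inactive intermediate, big endothelin, and the membrane metalloproteases ECE1 and ECE2 then cut this to the active peptide. The peptides act on 2 receptors that signal through G proteins: EDNRA, which binds endothelin 1 and endothelin 2 far better than endothelin 3, and EDNRB, which binds all of them about equally. In the retina, damaged photoreceptors are known to make endothelin 2, and Müller glia carry EDNRB, so the pair is regarded as a stress signal from photoreceptors to glia.

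The 3 ligand genes encode peptides that are much alike, so the stretch that codes for them is set out here. The stretch holds the 21 codons of the active peptide and the codon after it, and the bond between the last of these is the one the converting enzymes cut. It lies in exon 2 of each gene, on the plus strand of GRCm38 (the build named mm10), at chr13:42303649-42303714 for Edn1, chr4:120161951-120162016 for Edn2 and chr2:174761749-174761814 for Edn3, and the sequences are from GENCODE release M21. Capitals mark the 20 of 66 bases that the 3 genes do not all share.

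Edn1: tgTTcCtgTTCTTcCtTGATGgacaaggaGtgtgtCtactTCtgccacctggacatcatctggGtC

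Edn2: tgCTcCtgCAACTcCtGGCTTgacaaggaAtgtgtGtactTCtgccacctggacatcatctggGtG

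Edn3: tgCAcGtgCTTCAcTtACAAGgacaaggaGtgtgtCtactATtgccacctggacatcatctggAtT

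Edn2 and Edn1 shared 55 of these 66 bases, and Edn2 and Edn3 shared 49. Over the whole coding sequence the ligands were less alike, with 64.2% of aligned bases identical between Edn2 and Edn1 and 72.0% between Edn2 and Edn3. The longest run of bases that the transcripts of Edn2 and Edn1 had in common was 29, and that of Edn2 and Edn3 was 21. Ednrb and Ednra shared 67.7% of aligned coding bases, and Ece1 and Ece2 shared 68.4%, with longest common runs of 15 and 17 bases. Whether reads of one gene were counted for another was not tested.

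Unc119 itself measured 510, 460 and 449 FPKM in KO replicates 1, 2 and 3, against 1191, 1187 and 1206 FPKM in WT replicates 1, 2 and 3, so each KO library lay below each WT library. As a check of the tissue, the summed level of 12 rod markers ran from 29300 to 30715 FPKM in KO and from 28481 to 31122 FPKM in WT, and none of the 12 was at 0 in all libraries. The files give no counts, and the absolute depth is unknown. Relative depth, read from the steps between low values and set to 1 for WT replicate 2, was 0.935, 0.931 and 0.964 in KO replicates 1, 2 and 3, and 0.763 and 0.805 in WT replicates 1 and 3. The libraries also differed in RNA of neighbouring tissue. The summed level of 22 lens markers was 361, 818 and 14226 FPKM in KO replicates 1, 2 and 3, against 216, 969 and 53.0 FPKM in WT replicates 1, 2 and 3. By Xist and Y-linked genes, KO replicate 1 and WT replicates 1 and 2 were male, and KO replicates 2 and 3 and WT replicate 3 were female.

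Edn2 rose in the KO retina, and no other endothelin gene passed the test. Edn2 (ENSMUSG00000028635.7, chromosome 4, 120161206 to 120167360, plus strand, protein coding, 5 exons) measured 31.7, 42.3 and 37.5 FPKM in KO replicates 1, 2 and 3, against 3.29, 2.99 and 3.12 FPKM in WT replicates 1, 2 and 3. Every KO library stood above every WT library, with the highest value in KO replicate 2, and no annotated gene overlaps the locus. The means were 37.2 ± 5.34 FPKM in KO and 3.13 ± 0.150 FPKM in WT (SD, n = 3 each). Against the WT mean, KO replicate 1 was 10.1 times and KO replicate 2 was 13.5 times as high, with KO replicate 3 between them. The change on the log2(FPKM + 1) scale was 3.20 (SE 0.11, 95% interval 2.96 to 3.44, limma adjusted p = 1.5e-05).

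**Figure D1:**
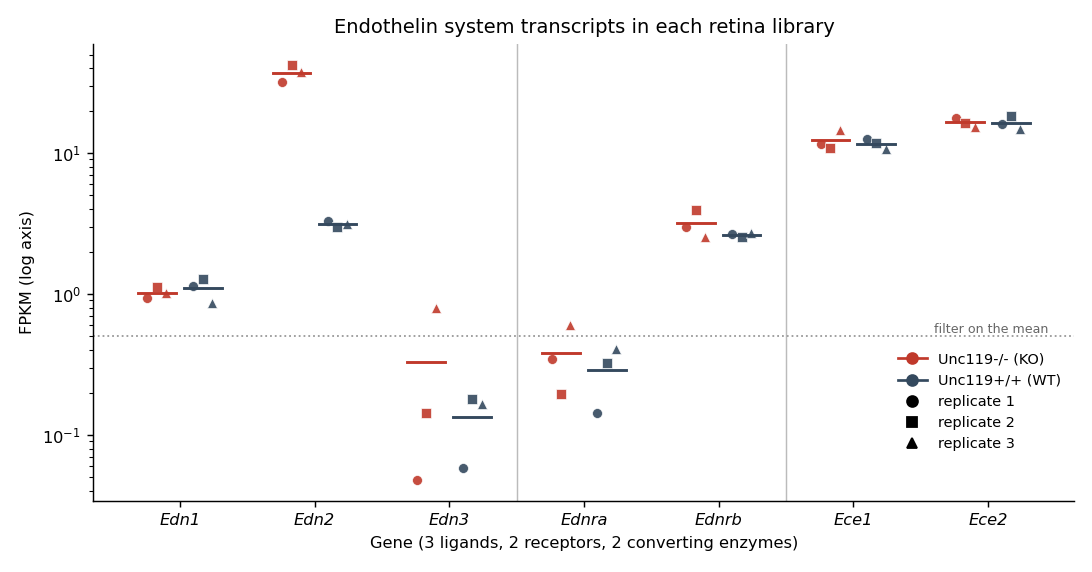
FPKM (log axis) of the 7 endothelin genes in each library. Points are libraries, with shapes for the replicate numbers, and bars are means, with KO in red to the left of WT in dark blue. The Edn2 points of KO lie at 31.7 to 42.3 and those of WT at 2.99 to 3.29, while the points of the other 6 genes overlap between genotypes.

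Of the 14176 genes with a mean of at least 0.5 FPKM over the 6 libraries, which were the ones tested, 29 (0.205%) were called higher and 4 (0.0282%) lower at a limma adjusted p under 0.05, or 0.233% of them in either direction. Of the 7 endothelin genes 5 passed this filter, and 1 of the 5, Edn2, was called. The count of genes called higher was 17 without KO replicate 1, 13 without KO replicate 2, 9 without WT replicate 1, 14 without WT replicate 2 and 11 without WT replicate 3, and Edn2 was among those called in each case. The count called lower was 2 without KO replicate 2 and 2 without WT replicate 3. Edn2 had the largest log2 rise among the 33 called genes. Among all genes tested 5 had a larger log2 change, all of them crystallins of the lens list, none of them called (lowest limma adjusted p = 0.584). Ordered by FPKM among the genes tested, Edn2 stood at place 2563, 1787 and 2068 in KO replicates 1, 2 and 3, against 10876, 11114 and 11016 in WT replicates 1, 2 and 3.

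**Figure D2:**
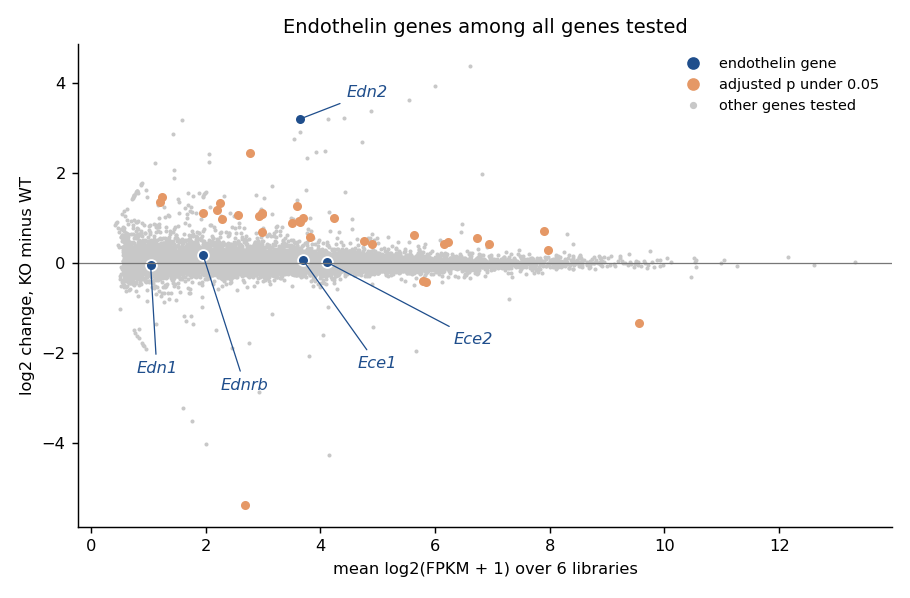
Log2 change (KO minus WT) against mean log2(FPKM + 1) for the 14176 genes tested. Endothelin genes are blue, Edn2 included, although it was also called, and the other genes with an adjusted p under 0.05 are orange. Edn2 lies at 3.20, and Edn1, Ednrb, Ece1 and Ece2 lie between −0.04 and 0.19.

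Relative depth also gave a relative fragment number for genes with simple transcripts. Multiplied by relative depth, the 6 values of Edn2 were whole multiples of a single step, to within 0.0078 of a whole number: 248, 330 and 303 in KO replicates 1, 2 and 3, and 21, 25 and 21 in WT replicates 1, 2 and 3. If 1 step is 1 fragment, these are the fragments behind each value, up to a common scale. On the log2(FPKM + 1) scale, KO was higher by 2.98 among males (1 KO and 2 WT libraries) and by 3.31 among females (2 KO and 1 WT library). With a term for lens RNA the change was 3.17 (limma adjusted p = 4.5e-04).

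The other ligands did not pass the test. Edn1 (chromosome 13, 42301476 to 42307990, plus strand), the ligand that endothelial cells make, measured 0.932, 1.12 and 1.02 FPKM in KO replicates 1, 2 and 3, against 1.14, 1.28 and 0.866 FPKM in WT replicates 1, 2 and 3. The genotypes overlapped, with both the lowest and the highest value in WT. The log2 change was −0.04 (SE 0.14, 95% interval −0.36 to 0.27, limma adjusted p = 0.940). In steps these values were 15, 18 and 17 in KO, against 15, 22 and 12 in WT. Summed levels of 12 endothelial markers ran from 90.03 to 96.0 FPKM in KO and from 86.5 to 94.6 FPKM in WT, and none of the 12 was at 0 in all libraries. An antisense gene, Gm47118, which is not among the genes listed, overlaps the span of Edn1 over 2694 bases, introns included. Their reads may not be fully told apart.

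Edn3 (chromosome 2, 174760619 to 174784042, plus strand), which guides neural crest cells and melanocytes through EDNRB, was the least abundant ligand and fell under the filter. It measured 0.0479, 0.144 and 0.791 FPKM in KO replicates 1, 2 and 3, against 0.0587, 0.179 and 0.167 FPKM in WT replicates 1, 2 and 3. Only KO replicate 3 stood above WT, and the other KO libraries lay within or under its range. In steps this was 1, 3 and 17 in KO, against 1, 4 and 3 in WT, so 5 of the 6 values rest on at most 4 fragments if 1 step is 1 fragment. Fitted with no filter, where 0.126% of 18240 genes were called, the log2 change was 0.19 (SE 0.19, 95% interval −0.27 to 0.64, limma adjusted p = 0.810), and −0.05 without KO replicate 3. That library also had the most RNA of the lens list and of the pigment epithelium and melanocyte list. The summed level of the 16 genes of the pigment list was 32.9, 103 and 147 FPKM in KO replicates 1, 2 and 3, against 41.2, 65.6 and 68.2 FPKM in WT replicates 1, 2 and 3, and none of the 16 was at 0 in all libraries. Their part in the Edn3 value of KO replicate 3 was not tested.

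Edn2 made up most of the ligand transcript in both genotypes, and nearly all of it in KO. Its share of the summed ligand FPKM was 97.0%, 97.1% and 95.4% in KO replicates 1, 2 and 3, against 73.2%, 67.2% and 75.1% in WT replicates 1, 2 and 3. The genotypes did not overlap. The means were 96.5% ± 0.959 in KO and 71.8% ± 4.13 in WT (SD, n = 3 each), a difference of 24.6 percentage points, and the two-sided exact permutation test gave p = 0.10, the smallest that 3 libraries against 3 allow. The summed ligand level was 32.6, 43.6 and 39.4 FPKM in KO, against 4.49, 4.44 and 4.15 FPKM in WT.

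**Figure D3:**
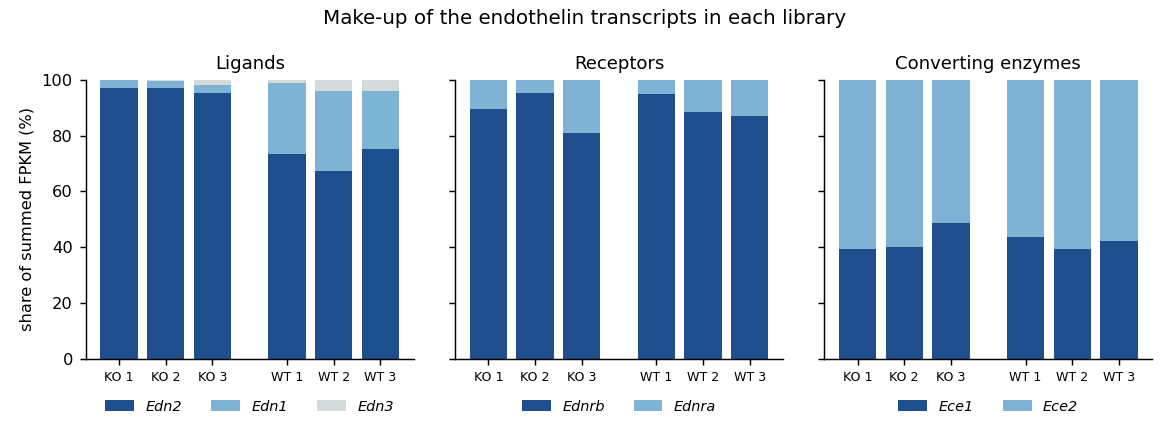
Share of the summed FPKM held by each ligand, receptor and converting enzyme (percent, axis from 0), one bar per library with KO to the left of WT. Edn2 holds 95.4% to 97.1% of the ligand level in KO and 67.2% to 75.1% in WT, while the receptor and enzyme shares overlap between genotypes.

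Neither receptor passed the test. Ednrb (ENSMUSG00000022122.15, chromosome 14, 103814625 to 103844402, minus strand), the receptor carried by Müller glia and astrocytes, measured 3.01, 3.97 and 2.53 FPKM in KO replicates 1, 2 and 3, against 2.66, 2.52 and 2.71 FPKM in WT replicates 1, 2 and 3. KO replicates 1 and 2 lay above WT and KO replicate 3 lay within its range, and the spread was wider in KO. The means were 3.17 ± 0.734 FPKM in KO and 2.63 ± 0.0978 FPKM in WT (SD, n = 3 each). The log2 change was 0.19 (SE 0.14, 95% interval −0.14 to 0.51, limma adjusted p = 0.709). The interval thus allows a modest rise as well as a small fall. It was 0.16 within males and 0.18 within females.

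No gene of the Müller glia list was called by limma. Among its 14 genes, all tested, 9 stood higher and 5 lower, with a median log2 change of 0.09 against 0.00 over all genes tested. At an unadjusted p under 0.05, 4 were higher and 1 lower, as were 5.19% and 3.81% of all genes tested. The genotypes did not overlap for 4 genes that were higher and 2 that were lower, against 7.83% and 8.04% of all genes tested. Glutamine synthetase (Glul), by which these cells clear glutamate, averaged 793 ± 7.56 FPKM in KO and 857 ± 31.6 FPKM in WT (SD, n = 3 each, limma adjusted p = 0.522). Apolipoprotein E (Apoe), a lipid carrier of these cells, averaged 400 ± 93.9 FPKM in KO and 292 ± 18.8 FPKM in WT (limma adjusted p = 0.463). In bulk retina, fewer cells of a type and less RNA per cell cannot be told apart.

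Ednra (chromosome 8, 77663031 to 77724464, minus strand), the receptor of smooth muscle and pericytes, fell under the filter. It measured 0.348, 0.194 and 0.600 FPKM in KO replicates 1, 2 and 3, against 0.142, 0.326 and 0.405 FPKM in WT replicates 1, 2 and 3. The genotypes overlapped, with the highest value in KO replicate 3 and the lowest in WT replicate 1. In steps the values were 9, 5 and 16 in KO, against 3, 9 and 9 in WT. Fitted with no filter, the log2 change was 0.09 (SE 0.13, 95% interval −0.22 to 0.40, limma adjusted p = 0.857), and −0.02 without KO replicate 3. The summed level of 12 pericyte and smooth muscle markers was also highest in that library, at 29.97, 26.7 and 43.1 FPKM in KO replicates 1, 2 and 3, against 26.4, 26.6 and 24.1 FPKM in WT replicates 1, 2 and 3. None of the 12 was at 0 in all libraries, and their part in the Ednra value was not tested. The gene 4933431K23Rik on the opposite strand overlaps the whole span of Ednra, 61434 bases with introns, where the Ednra transcript has 3625 bases. It is not among the genes listed, the overlap of exons was not measured, and reads of the pair may not be fully told apart.

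Ednrb made up most of the receptor transcript in each library. It held 89.6%, 95.3% and 80.8% of the summed receptor FPKM in KO replicates 1, 2 and 3, against 94.9%, 88.6% and 87.0% in WT replicates 1, 2 and 3. The difference of the means was −1.57 percentage points, with overlapping genotypes (two-sided exact permutation p = 1.0, n = 3 each), and it changed sign when KO replicate 3 was left out (2.32 points) and when WT replicate 1 was left out (0.813 points). The summed receptor level was 3.36, 4.17 and 3.13 FPKM in KO replicates 1, 2 and 3, against 2.80, 2.85 and 3.11 FPKM in WT replicates 1, 2 and 3. Each KO sum lay above each WT sum, KO replicate 3 and WT replicate 3 being nearly equal (ratio of the means 1.22, two-sided exact permutation p = 0.10, the smallest possible).

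The converting enzymes had the highest levels of the 7 genes in the WT retina and did not pass the test. Ece1 (ENSMUSG00000057530.14, chromosome 4, 137862237 to 137965229, plus strand) measured 11.6, 10.9 and 14.6 FPKM in KO replicates 1, 2 and 3, against 12.5, 11.8 and 10.7 FPKM in WT replicates 1, 2 and 3. Its highest value was in KO replicate 3 and its lowest in WT replicate 3. The log2 change was 0.07 (SE 0.11, 95% interval −0.19 to 0.33, limma adjusted p = 0.874). Ece2 (ENSMUSG00000022842.18, chromosome 16, 20629828 to 20646485, plus strand), which works at acid pH inside secretory vesicles of neurons, measured 17.8, 16.4 and 15.4 FPKM in KO, against 16.2, 18.3 and 14.7 FPKM in WT. WT held both its highest and its lowest value. The log2 change was 0.01 (SE 0.09, 95% interval −0.19 to 0.22, limma adjusted p = 0.972). In the annotation, another gene on the same strand, Gm49333, overlaps the span of Ece2 over 16093 bases, introns included, so their reads may not be fully told apart. An antisense gene, Gm13012, overlaps the span of Ece1 over 1568 bases. Neither Gm49333 nor Gm13012 is among the genes listed. The share of Ece1 in the summed enzyme FPKM averaged 42.7% ± 5.24 in KO and 41.6% ± 2.23 in WT (SD, n = 3 each, two-sided exact permutation p = 0.800).

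**Figure D4:**
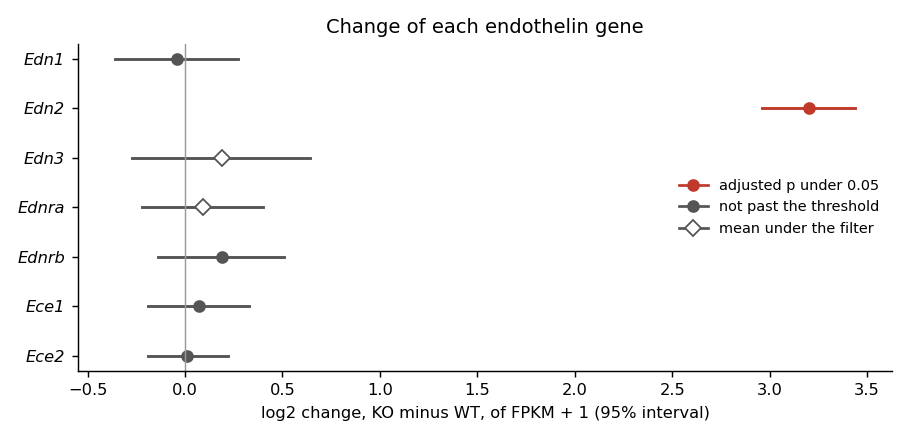
Log2 change (KO minus WT, of FPKM + 1) of each endothelin gene, with its 95% interval from limma. Filled circles are genes that passed the filter on low values and open diamonds those under it, fitted with no filter. The interval of Edn2 runs from 2.96 to 3.44, and those of the other 6 genes include 0.

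Set in order of mean FPKM, the KO retina held Edn2 (37.2), Ece2 (16.5), Ece1 (12.4), Ednrb (3.17), Edn1 (1.03), Ednra (0.381) and Edn3 (0.328). In the WT retina the order was Ece2 (16.4), Ece1 (11.7), Edn2 (3.13), Ednrb (2.63), Edn1 (1.10), Ednra (0.291) and Edn3 (0.135). Edn2 was thus first in KO, and in WT it came after both converting enzymes. Within KO, the ranges of Ednra and Edn3 overlapped, and the ranges of the other neighbours in the order did not. Within WT, the lowest Edn2 value (2.99) lay above the highest Ednrb value (2.71), and the ranges of Ednra and Edn3 overlapped.

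Enzymes that trim or break down endothelins did not pass the test either. Of a list of 14, 9 were tested and none was called by limma. Of the 9, 5 were higher and 4 lower, with a median log2 change of 0.13 against 0.00 over all genes tested. At an unadjusted p under 0.05, 1 gene was higher, as were 5.19% of all genes tested. Furin, which trims the precursors, averaged 14.1 ± 1.01 FPKM in KO and 12.8 ± 0.965 FPKM in WT (SD, n = 3 each, limma adjusted p = 0.663). Cathepsin A (Ctsa), a lysosomal protease that degrades endothelin 1, measured 30.5, 30.1 and 29.5 FPKM in KO, against 27.9, 25.3 and 26.8 FPKM in WT. All KO values of Ctsa lay above all WT values, as was the case for 7.83% of all genes tested, and its limma adjusted p was 0.446. Neprilysin (Mme), a membrane protease that cleaves endothelins, measured 0.313, 0.460 and 4.56 FPKM in KO replicates 1, 2 and 3, against 0.620, 0.383 and 0.308 FPKM in WT replicates 1, 2 and 3, so it was high only in KO replicate 3. The angiotensin-converting enzyme gene Ace was highest in the same library, at 2.41, 2.01 and 4.20 FPKM in KO replicates 1, 2 and 3, against 1.77, 1.90 and 2.06 FPKM in WT replicates 1, 2 and 3 (limma adjusted p = 0.621). Kel, Cma1, Cma2 and Ctsg were listed at 0 in each library.

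Genes that act after the receptors did not pass the test. None of 26 tested genes of Gq and endothelin receptor signalling was called by limma, 10 being higher and 16 lower, with a median log2 change of −0.03. At an unadjusted p under 0.05, 1 gene was lower, where 5.19% of all genes tested were higher and 3.81% lower. None of 12 tested partners in vessel tone was called, with 5 higher, 7 lower and 1 in each direction at an unadjusted p under 0.05. Of 13 tested regulators of endothelin transcription none was called, with 10 higher, 3 lower, a median of 0.09 and 1 higher at an unadjusted p under 0.05. The hypoxia factors were among the most abundant of these. Hif1a averaged 186 ± 6.81 FPKM in KO and 185 ± 9.79 FPKM in WT, with a limma adjusted p of 0.982 (SD, n = 3 each). Epas1 measured 28.7, 31.4 and 29.8 FPKM in KO replicates 1, 2 and 3, against 28.3, 29.2 and 26.6 FPKM in WT replicates 1, 2 and 3 (limma adjusted p = 0.666).

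A list of 18 photoreceptor injury signals and glial response genes, which includes Edn2 and Ednrb and was drawn up knowing that several of its genes had risen in these libraries, held 5 called genes among 17 tested. They were Edn2, Fgf2, Cebpd, Serpina3n and Gfap, all higher in KO, where 0.205% of all genes tested were called higher. Of the 17, 15 were higher and 2 lower, with a median log2 change of 0.69 against 0.00 over all genes tested. The genotypes did not overlap for 11 genes that were higher and 2 that were lower, against 7.83% and 8.04% of all genes tested, or 15.9% in either direction. The count of called genes was 1, Edn2 itself, with the lens term and also without both KO replicate 3 and WT replicate 2, the libraries with the most lens RNA of their genotype. The log2 changes with the lens term were 2.23 for Fgf2, 1.13 for Cebpd, 0.94 for Serpina3n and 0.91 for Gfap, against 2.45, 1.33, 1.08 and 0.93 without it. The count of called genes of the list was 3 without KO replicate 1, 2 without WT replicate 1, 3 without WT replicate 2 and 2 without WT replicate 3. The microglia list moved with this list. Its summed level was 82.0, 87.5 and 98.7 FPKM in KO replicates 1, 2 and 3, against 53.9, 54.2 and 57.3 FPKM in WT replicates 1, 2 and 3, and its 12 markers all stood higher in KO, 9 of them without overlap, with a median log2 change of 0.54. Of the 12, 2 were called higher, against 0.205% of all genes tested, among them the protease gene Ctss at 16.3 ± 1.01 FPKM in KO and 10.5 ± 0.554 FPKM in WT (limma adjusted p = 0.0303). The call of Ctss was lost when any 1 library was left out (limma adjusted p from 0.070 to 0.137). The part of the microglia list in the injury list was not tested.

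**Figure D5:**
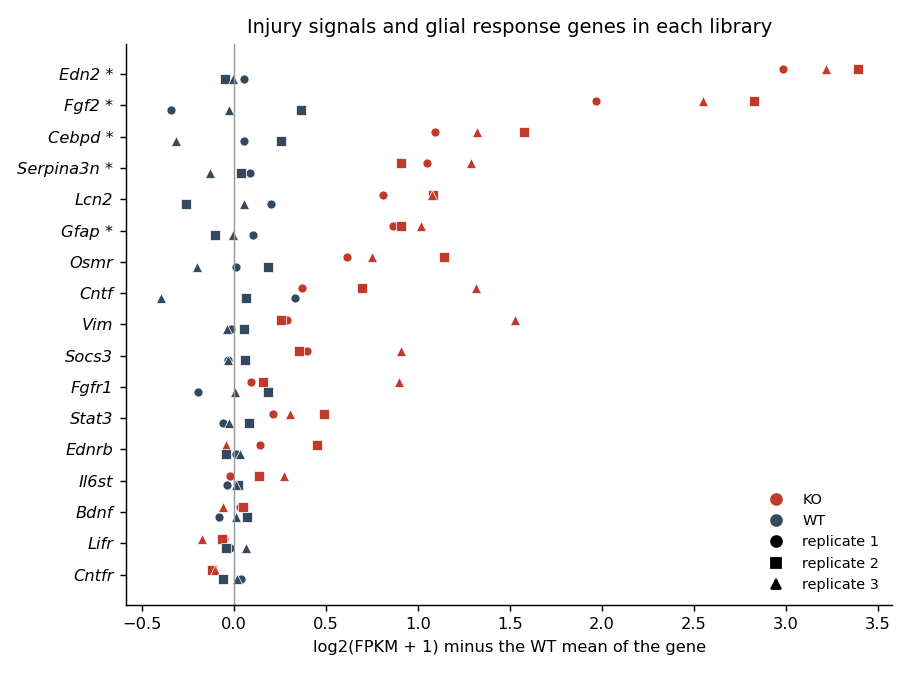
Log2(FPKM + 1) of each library minus the WT mean of the gene, for the 17 tested genes of the list of injury signals and glial response. KO points are red and drawn above the dark blue WT points, shapes give the replicate number, and asterisks mark an adjusted p under 0.05. Edn2, with a log2 change of 3.20, lies farthest to the right in KO, and the points of Ednrb lie near 0 except that of KO replicate 2.

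Fgf2 is a survival factor for photoreceptors. Among the genes tested, with predicted and small RNA genes left out, its pattern over the 6 libraries was most like that of Edn2. The likeness was measured as the root mean square difference of centred log2(FPKM + 1) values, which was 0.461 for Fgf2, 0.875 for Lad1 and 0.878 for C4b. This measure includes the rise in KO, by which Edn2 ranked 1 and Fgf2 ranked 2 among the 33 called genes. Fgf2 measured 10.5, 19.8 and 16.2 FPKM in KO replicates 1, 2 and 3, against 1.32, 2.78 and 1.88 FPKM in WT replicates 1, 2 and 3. Within KO its order was that of Edn2, highest in replicate 2 and lowest in replicate 1. Within WT the order was reversed, with Fgf2 highest and Edn2 lowest in replicate 2. The WT values of Edn2 spanned only 2.99 to 3.29 FPKM, on 21, 25 and 21 steps in replicates 1, 2 and 3, so the WT order is uncertain. The log2 change of Fgf2 was 2.45 (SE 0.24, limma adjusted p = 0.0101), with 39, 73 and 62 steps in KO, against 4, 11 and 6 in WT. It was 2.28 without WT replicate 1 (limma adjusted p = 0.0568), 2.44 without WT replicate 3 (0.0652) and 2.23 with the lens term (0.0860). Nudt6 overlaps Fgf2 on the opposite strand, and their reads may not be fully told apart. Lad1, which encodes a basement membrane protein, averaged 2.92 ± 0.584 FPKM in KO and 0.415 ± 0.0725 FPKM in WT (SD, n = 3 each, limma adjusted p = 0.0101). Its limma adjusted p was 0.0609, 0.0533 and 0.0652 without WT replicate 1, 2 or 3. The complement gene C4b averaged 6.34 ± 3.15 FPKM in KO and 1.34 ± 0.262 FPKM in WT (limma adjusted p = 0.119, and 0.0452 without KO replicate 3). Reads of C4b may be shared with a closely similar gene, which leaves its level uncertain.

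Leukemia inhibitory factor (Lif), a cytokine of Müller glia that is known to raise Edn2 in photoreceptors, stayed under the filter. It measured 0.512, 0.666 and 0.373 FPKM in KO replicates 1, 2 and 3, against 0.299, 0.256 and 0.243 FPKM in WT replicates 1, 2 and 3. The KO libraries all lay above the WT libraries, as was the case for 7.41% of the 18240 genes fitted with no filter (log2 change 0.26, 95% interval 0.04 to 0.47, limma adjusted p = 0.547). KO replicate 2 was the highest for Lif as it was for Edn2 and Ednrb. Such a shared highest library was common: of the 17 tested genes of the injury list, KO replicates 2 and 3 were each highest for 8. The receptor subunits through which Lif acts did not pass the test: Lifr averaged 12.6 ± 0.584 FPKM in KO and 13.5 ± 0.597 FPKM in WT, and Il6st, or gp130, averaged 27.6 ± 2.87 FPKM in KO and 25.1 ± 0.599 FPKM in WT (SD, n = 3 each, limma adjusted p = 0.698 and 0.645). Ciliary neurotrophic factor (Cntf) measured 4.38, 5.73 and 9.36 FPKM in KO replicates 1, 2 and 3, against 4.23, 3.35 and 2.16 FPKM in WT replicates 1, 2 and 3 (limma adjusted p = 0.463). Its receptor subunit Cntfr averaged 21.9 ± 0.166 FPKM in KO and 23.8 ± 0.847 FPKM in WT (limma adjusted p = 0.573).

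Gfap, the intermediate filament of astrocytes and reactive Müller glia, rose in KO. It measured 15.3, 15.8 and 17.1 FPKM in KO replicates 1, 2 and 3, against 8.63, 7.35 and 7.91 FPKM in WT replicates 1, 2 and 3. All KO libraries lay above all WT libraries and close to each other, and the log2 change was 0.93 (SE 0.08, limma adjusted p = 0.00447). With the lens term it was 0.91 (limma adjusted p = 0.0645). The acute-phase factor gene Cebpd averaged 6.65 ± 1.28 FPKM in KO and 2.06 ± 0.591 FPKM in WT, with a limma adjusted p of 0.0412 (SD, n = 3 each). The call was lost when any 1 library was left out (limma adjusted p from 0.0688 to 0.171) and with the lens term (0.259). The protease inhibitor gene Serpina3n averaged 10.5 ± 1.55 FPKM in KO and 4.42 ± 0.427 FPKM in WT (SD, n = 3 each), with a limma adjusted p of 0.0132. That p was 0.0688 without KO replicate 1, 0.0629, 0.0707 and 0.0708 without WT replicate 1, 2 or 3, and 0.0860 with the lens term. The log2 change was 1.08 with all libraries, 1.10 without KO replicate 1, 1.02 to 1.13 without 1 WT library and 0.94 with the lens term.

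The cytokine response genes Osmr, Stat3 and Socs3 lay higher in each KO library than in any WT library, as did 7.83% of all genes tested, without passing the test. The oncostatin M receptor Osmr averaged 4.69 ± 1.11 FPKM in KO and 2.17 ± 0.422 FPKM in WT, and the transcription factor Stat3 averaged 26.5 ± 2.70 FPKM in KO and 20.7 ± 1.10 FPKM in WT (SD, n = 3 each, limma adjusted p = 0.194 and 0.284). KO replicate 2 was highest for Edn2, Fgf2, Cebpd, Osmr and Stat3. KO replicate 3, in which lens transcripts were most abundant, was highest for Socs3, a feedback inhibitor of cytokine signalling, which averaged 2.40 ± 0.764 FPKM in KO and 1.28 ± 0.0891 FPKM in WT (SD, n = 3 each, limma adjusted p = 0.420). It was also highest for the filament gene Vim, at 83.3, 81.6 and 198 FPKM in KO, against 67.3, 70.7 and 66.4 FPKM in WT, and for the receptor gene Fgfr1, at 5.13, 5.43 and 9.70 FPKM in KO, against 4.03, 5.55 and 4.78 FPKM in WT. Lipocalin 2 (Lcn2), an iron-siderophore binding protein of reactive glia, measured 5.11, 6.36 and 6.35 FPKM in KO replicates 1, 2 and 3, against 3.01, 1.91 and 2.61 FPKM in WT replicates 1, 2 and 3 (limma adjusted p = 0.0589). Over the 17 tested genes the highest KO value was in replicate 1 for 1 gene, in replicate 2 for 8 and in replicate 3 for 8.

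Markers of photoreceptors, the known source of endothelin 2 in the injured retina, mostly did not pass the test. Of 12 rod markers 6 were higher and 6 lower, with none called by limma, a median log2 change of 0.00 and 1 lower at an unadjusted p under 0.05. Of 12 cone markers 3 were higher and 9 lower, with a median of −0.04. At an unadjusted p under 0.05, 1 was higher and 2 were lower, as were 5.19% and 3.81% of all genes tested. By limma 1 was called higher, against 0.205% of all genes tested. That gene was Gnb3, a transducin subunit gene placed on the cone list. It averaged 303 ± 9.12 FPKM in KO and 185 ± 6.40 FPKM in WT (SD, n = 3 each, limma adjusted p = 0.00119). In which cells Edn2 or Gnb3 rose cannot be read from bulk retina.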

How the data were processed

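Total RNA of retina was taken with TRIzol and made into libraries with a stranded mRNA kit, per the labels. The authors deposited 1 table of FPKM values per library, per the file headers. The submitters' processing notes name TopHat2 2.1.1, Cuffdiff 2.2.1 and the mm10 genome, and the sources used here give no annotation, strand setting or scaling between libraries. FPKM values are scaled to transcript length and library size, so depth is unknown and no count test was run.

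Genes with a mean of at least 0.5 FPKM were tested on log2(FPKM + 1) with limma 3.58.1 in R 4.3.3, with a mean-dependent prior variance, two-sided, adjusted by Benjamini-Hochberg over all genes tested with a threshold of 0.05. This scale understates the change of low genes. The fit was tested on simulated data with independent normal noise. These held no library rich in lens RNA, so the check does not cover such differences between libraries. Shares were compared by exact permutation. The alternatives were another pseudocount, filter or scaling, library weights, a term for replicate, sex or lens RNA, and leaving out libraries. Python 3.11.15 and Biopython 1.88 were used for the rest.

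Members and gene lists were chosen with earlier results of these data known. Genes were named if they were members or belonged to the lists of endothelin processing or injury signals. Up to 3 of each other list could be named (called ones first, then the highest mean). The 3 genes most like Edn2 were also named, with predicted and small RNA genes left out of that search. The relative depth was the commonest ratio between libraries over genes of at most 0.3 FPKM, found within 0.015 log2 units for 27.7% to 30.5% of them, and values were called whole multiples of a step within 0.05. Of the 261 genes listed, 4 were matched through an older symbol. Coordinates are from GENCODE M21. Overlaps between genes were counted over whole gene spans, introns included.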

Additional observations from a re-analysis of the deposited data

How the results depend on the processing

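Edn2 was called in all 16 alternatives, with log2 changes from 3.10 to 3.52 and adjusted p up to 0.00199, and Ednrb stayed above 0 and uncalled in all 16 (0.05 to 0.30). The other endothelin genes were called in none, but signs turned. The lens term gave −0.07 for Edn3, −0.09 for Ece1, −0.01 for Ece2 and −0.12 for Mme. Without KO replicate 3 and WT replicate 2, chosen after seeing the data, the changes were 0.02 for Edn1, −0.02 for Edn3, −0.04 for Ece1, −0.07 for Mme and −0.02 for Hif1a. Quantile normalization gave 0.00 for Hif1a. With 1 library left out, the changes ran from −0.13 to 0.02 for Edn1, −0.05 to 0.34 for Edn3, −0.02 to 0.19 for Ednra, −0.05 to 0.15 for Ece1, −0.05 to 0.09 for Ece2, −0.05 to 0.99 for Mme and −0.02 to 0.05 for Hif1a. The difference in the Ednrb share ran from −4.94 to 2.32 points and that in the Ece1 share from −1.98 to 2.65 points. The causes were not tested.

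Genes called higher numbered 29, and 13 with the replicate block, 17 with a sex term, 5 with the lens term, 4 without KO replicate 3 and WT replicate 2, and 9 to 23 with 1 library left out. Genes called lower numbered 4, and 2 with no filter, the replicate block, the sex term or the lens term, and 2 to 4 with 1 library left out. The injury list held 5 called genes, and 3 with the replicate block, 1 with the lens term, 1 without KO replicate 3 and WT replicate 2, and 2 to 4 with 1 library left out. The replicate block changed no call of an endothelin gene. Same-numbered libraries were not seen to deviate together (correlations of 0.072, −0.0902 and −0.119 for numbers 1, 2 and 3), and not every library correlated best with its own number. For the 30 other named genes, 427 alternatives kept direction and call, 42 lost a call, 1 gained one and 8 changed sign. The library number limits precision, and genes such as Edn3 rest on few fragments.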
